A study of Mus musculus with 6 samples.

Results

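The genes described here make cholesterol and fatty acids or govern how much of them a cell makes. The list held 34 genes: 19 enzymes that build sterols, 6 genes that sense or move sterols, 6 enzymes that build fatty acids, and 3 genes of the liver X receptor and sterol efflux. They were chosen by name, and each gene was read at its brightest probe set by the mean of all 6 arrays, after probe sets annotated to several genes had been put aside. In this way 32 of the 34 were measured, out of 18193 genes in all. Acat2, the cytosolic thiolase at the head of the sterol pathway, and Nr1h2, which encodes liver X receptor beta, matched no probe set by name, so their expression was not analysed here. The list does not hold every enzyme of the pathway.

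RNA came from subcutaneous tumours of 344SQ, a lung adenocarcinoma line from a mouse with the alleles KrasLA1/+ and p53R172HdelG/+, and both fractions share that origin, so all values come from 1 line. The tumours were sorted by flow cytometry for high or low CD133, a surface glycoprotein encoded by Prom1, with 3 Affymetrix arrays a fraction. The labels name no age of the mice, no treatment and no other marker used in the sort. They do not say if the arrays came from different tumours or sorts, and p-values then cover only the spread among the arrays, which may be technical. The question of the design is which genes differ between the fractions. Values are log2 probe set values and differences are CD133 high minus CD133 low. In sorted bulk RNA, fewer cells of a type and less RNA per cell cannot be told apart.

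Several measures of the arrays bear on every value that follows. Across probe sets, CD133 high replicate 1 had a mean Spearman rho of 0.973 with the CD133 low arrays and of 0.931 with the other CD133 high arrays. The mean of the bacterial hybridisation controls was 10.38 on this array, 11.29 and 11.04 on the other 2 CD133 high arrays, and 10.19 to 10.51 in the CD133 low fraction. The 3' probe set of Gapdh minus its middle one, a measure of RNA quality, was 0.44 and 0.46 on those 2 arrays and −0.13 to −0.07 on the other 4. The part of these measures in the results was not tested, and results are given with and without CD133 high replicate 1. Prom1 read 5.49, 5.92 and 6.06 in the low fraction and 6.805, 6.63 and 6.40 in the high fraction (limma, adjusted p = 0.297), which checks the labels and is no finding.

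Markers of other cell types were present in both fractions. Summed over 13 macrophage markers such as Cd14, Lyz2 and C1qa, the level (log2 of the sum of linear values) was 16.10 to 16.19 in the low and 16.10 to 16.22 in the high fraction. The 10 epithelial markers, among them Krt18, Krt8 and Cdh1, summed to 14.41 to 14.61 on the low arrays and 14.27 to 14.74 on the high arrays. The 9 fibroblast markers (Col3a1, Col1a2 and Col1a1 among them) gave 15.76 to 15.88 and 15.78 to 16.17, and the 8 endothelial markers, with Esam, Egfl7 and Emcn, gave 11.24 to 11.51 and 11.44 to 11.60. Adipocytes and sebaceous cells are rich in lipid synthesis enzymes. Of 13 adipocyte markers 11 were measured, with Retn, Lpl and Fabp4 in the lead, and summed to 12.33 to 12.78 low and 12.02 to 12.68 high. Adipoq, Plin4, Cidea and Lep had means below 5, in the dim range, and the rest of the measured adipocyte markers had means above 5. No marker of any list was at 0 on all arrays. The 7 measured sebaceous and keratinocyte markers, with Krt5, Lor and Krt1, gave 9.93 to 10.15 and 9.88 to 10.41. T and B cell markers (12 of 13 measured, with Cd22, Ms4a1 and Cd3e) summed to 13.29 to 13.64 low and 11.28 to 11.53 high, without overlap. Cd4 was dim, and 8 of the 12 fell (limma, adjusted p under 0.05), where 0.231% of all genes were called lower. Cd22 was not among the 8, with a difference of −0.22 and overlap (adjusted p = 0.688). Without CD133 high replicate 1, 9 of the 12 fell and 1 rose, where 14.6% and 11.7% of all genes did so. The part of these cells in the differences below was not tested.

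Cholesterol is built from acetyl-CoA through mevalonate and farnesyl pyrophosphate to squalene, which is closed into lanosterol and then trimmed, reduced and desaturated. The transcription factor SREBP-2 (Srebf2) raises the genes of this route and SREBP-1 (Srebf1) those of fatty acid synthesis. When membranes are rich in sterols, Insig proteins hold SREBP and its escort Scap in the endoplasmic reticulum; when sterols are scarce, the complex leaves and SREBP is cut and enters the nucleus. Liver X receptors respond to oxidised sterols and raise the efflux pumps Abca1 and Abcg1.

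The promoters of the members give a feature that the choice of genes did not use. RefSeq promoter windows (GRCm38.p6, 250 bases before to 50 after each annotated start) were held for 27 members, in 35 windows. Acat2 and Nr1h2, whose expression was not measured, are among the 27. Windows were searched on both strands for a form of the sterol regulatory element, spelled TCACNCCAC, through which SREBP acts. They were also searched for the box bound by the factor NF-Y, spelled CCAAT. The NF-Y box stood in 22 of the 35 member windows (62.9%) and in 37.4% of all 32851 windows of the same length, and the sterol element in 1 of the 35 (2.86%), that of Hmgcs1, and in 1.24% of all. A match is a description of the letters, not of a bound site, and base composition was not matched. Printed here are the windows of the 5 sterol enzymes with the smallest p-values among those with a window, so that the recurring NF-Y boxes and the Hmgcs1 element can be seen; capitals mark both, on either strand, and no match of one overlapped a match of the other. The Hmgcs1 element begins at position −137 relative to the annotated start. Hmgcs1 is the window chr13:119690101-119690400 (plus strand), Idi1 chr13:8885356-8885655 (plus), Hsd17b7 chr1:169969156-169969455 (minus), Ebp chrX:8193463-8193762 (minus) and Dhcr7 chr7:143829964-143830263 (plus), the one of its 3 windows that holds an NF-Y box.
Hmgcs1: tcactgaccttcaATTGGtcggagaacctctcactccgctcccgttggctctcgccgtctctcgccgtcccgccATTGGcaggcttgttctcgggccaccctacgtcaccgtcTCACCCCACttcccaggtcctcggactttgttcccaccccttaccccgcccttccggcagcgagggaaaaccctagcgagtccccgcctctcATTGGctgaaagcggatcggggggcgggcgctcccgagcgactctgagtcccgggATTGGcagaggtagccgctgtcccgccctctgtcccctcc
Idi1: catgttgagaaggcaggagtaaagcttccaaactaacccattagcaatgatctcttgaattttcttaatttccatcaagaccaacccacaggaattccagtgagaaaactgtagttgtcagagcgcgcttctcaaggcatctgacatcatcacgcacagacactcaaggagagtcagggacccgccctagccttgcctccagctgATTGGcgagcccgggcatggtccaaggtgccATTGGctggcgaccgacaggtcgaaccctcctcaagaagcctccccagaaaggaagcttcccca
Hsd17b7: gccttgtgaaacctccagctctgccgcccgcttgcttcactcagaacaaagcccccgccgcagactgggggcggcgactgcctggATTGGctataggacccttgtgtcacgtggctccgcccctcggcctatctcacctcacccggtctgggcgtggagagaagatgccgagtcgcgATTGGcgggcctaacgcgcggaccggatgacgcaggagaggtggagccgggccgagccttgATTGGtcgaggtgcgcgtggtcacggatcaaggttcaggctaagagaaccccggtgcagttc
Ebp: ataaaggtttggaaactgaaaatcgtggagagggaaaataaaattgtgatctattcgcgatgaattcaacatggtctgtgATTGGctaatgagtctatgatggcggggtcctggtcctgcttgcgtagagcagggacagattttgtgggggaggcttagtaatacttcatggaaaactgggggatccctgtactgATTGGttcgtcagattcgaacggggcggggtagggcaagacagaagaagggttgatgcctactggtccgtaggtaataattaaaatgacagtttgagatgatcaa
Dhcr7: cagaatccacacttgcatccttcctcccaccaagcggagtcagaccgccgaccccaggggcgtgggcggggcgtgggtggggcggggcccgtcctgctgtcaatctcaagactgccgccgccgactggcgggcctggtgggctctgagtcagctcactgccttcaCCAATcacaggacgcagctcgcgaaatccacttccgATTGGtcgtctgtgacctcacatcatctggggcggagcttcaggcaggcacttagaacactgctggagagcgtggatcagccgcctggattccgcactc
Hmgcs1, Idi1 and Hsd17b7 were brighter on every CD133 high array and Ebp and Dhcr7 dimmer, as given below. The printed windows hold 4 NF-Y boxes in Hmgcs1, 3 in Hsd17b7 and 2 in each of the others. The Dhcr7 window was picked for its boxes, so their presence there is no finding, and the other windows of Dhcr7 hold none. Of 2 further motifs searched on both strands, the E-box CACGTG stood in 7 of the 35 member windows (20.0%) and in 7.15% of all windows, and the GC box GGGCGG in 26 (74.3%) and in 35.7% of all.

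With all 6 arrays, no member passed the test. Of the 32 measured members 0 were called higher and 0 lower (limma, adjusted p under 0.05, adjusted over 45037 probe sets), where 0.022% of all genes were called higher and 0.231% lower. The smallest adjusted p among the members at their brightest probe sets was 0.297. At an unadjusted p under 0.05 stood 9 of the 32 members, 6 of them higher and 3 lower, against 18.2% of all genes. The high fraction lay wholly above the low fraction in 7 members, Hmgcs1, Idi1, Fdft1, Sqle, Hsd17b7, Stard4 and Scd2, and wholly below it in 4, Dhcr7, Ebp, Tm7sf2 and Scd1, where 10.8% and 12.8% of all genes did so. For the 4, that is close to the share among all genes.

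Without CD133 high replicate 1, 14 members passed the test. Nsdhl, Hsd17b7, Lss, Srebf2, Elovl6 and Scd2 rose (6 of 32), and Fdps, Tm7sf2, Ebp, Dhcr7, Scap, Acaca, Fasn and Scd1 fell (8 of 32), where 11.7% of all genes were called higher and 14.6% lower. With all 6 arrays and array weights in limma, Nsdhl, Hsd17b7 and Elovl6 rose (3 of 32) and Dhcr7 and Scd1 fell (2 of 32), where 5.91% of all genes were called higher and 7.69% lower. The contrast without CD133 high replicate 1 sets 2 arrays against 3, and the 2 are those with the higher hybridisation controls and the larger Gapdh difference.

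**Figure D1:**
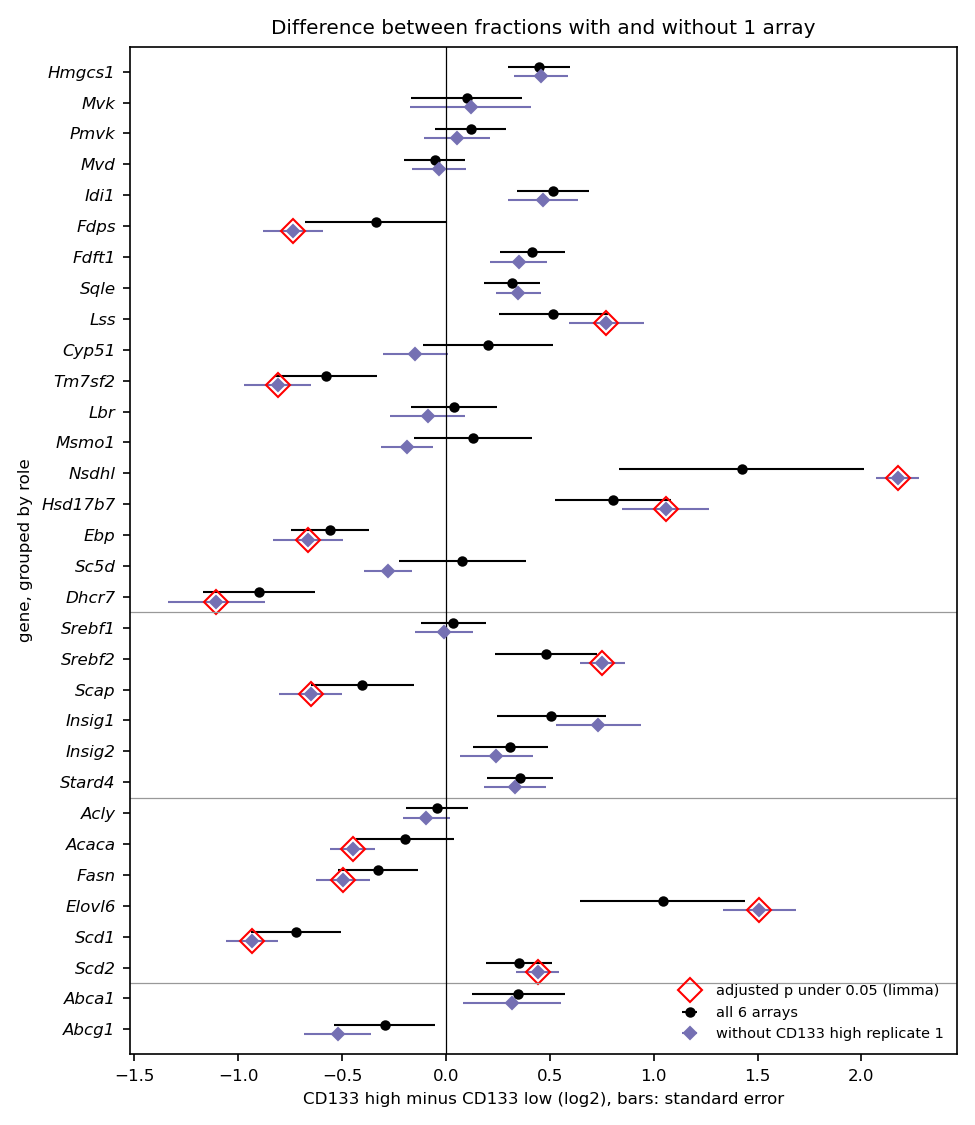
Difference between the fractions (CD133 high minus CD133 low, log2, horizontal axis) of the 32 measured members, grouped by role; bars are standard errors, black points use all 6 arrays, purple diamonds leave out CD133 high replicate 1, and red outlines mark an adjusted p under 0.05. The 14 outlined genes run from −1.11 (Dhcr7) to 2.17 (Nsdhl), and none of the black points passed the test.

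The sterol enzymes as a group had a median difference of 0.12 over 18 genes, 13 positive and 5 negative, beside a median of 0.0013 over all genes. Taken per array, as the deviation from the CD133 low mean, the median of the group was 0.28 on CD133 high replicate 1, −0.09 on replicate 2 and 0.07 on replicate 3, and −0.03 to 0.05 on the CD133 low arrays. Without CD133 high replicate 1 the median was 0.01. Below, the enzymes are taken in the order of the pathway.

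**Figure D2:**
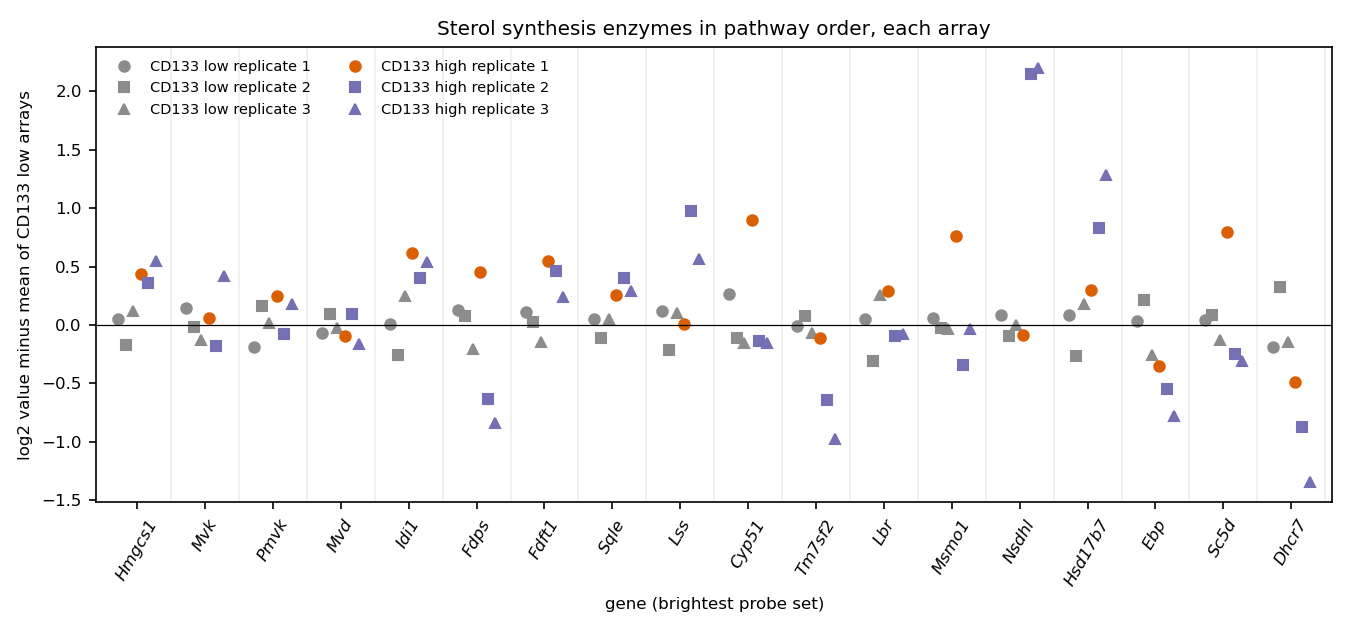
Log2 value of each array minus the mean of the 3 CD133 low arrays (vertical axis) for 18 sterol synthesis enzymes in pathway order (horizontal axis); grey symbols are CD133 low arrays, the orange circle CD133 high replicate 1, and the purple square and triangle CD133 high replicates 2 and 3. Nsdhl lies more than 2 above the low fraction on replicates 2 and 3 and at its level on replicate 1, whereas Cyp51, Msmo1 and Sc5d are highest on replicate 1.

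Hmgcs1 and Idi1, which act on the way to squalene, were brighter on every CD133 high array, with no pass of the test. Hmgcs1, the synthase that makes HMG-CoA, read 11.06, 10.85 and 11.13 in the low fraction and 11.45, 11.38 and 11.56 in the high fraction, both in the order of replicates 1, 2 and 3, as in all that follows. The fractions did not overlap, and the difference was 0.45 (SE 0.15, limma, adjusted p = 0.297). Idi1, the isomerase that readies the isoprene unit for joining, read 9.62, 9.35 and 9.85 against 10.22, 10.01 and 10.15, again without overlap (difference 0.52, SE 0.17, adjusted p = 0.297). Without CD133 high replicate 1, Hmgcs1 and Idi1 differed by 0.46 and 0.47 (adjusted p = 0.0594 and 0.105), close to their sizes with all arrays. Other probe sets were less even: the second of Idi1 differed by 0.28 with overlap, and by 0.13 without replicate 1 (adjusted p = 0.497), and the next 2 by level of Hmgcs1, after the brightest pair, differed by 0.20 and 0.24 with overlap, and by 0.069 and −0.015 without it (adjusted p = 0.75 and 0.967).

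Mvk, Pmvk and Mvd, which phosphorylate mevalonate in sequence and then decarboxylate it, had differences of 0.10 (95% interval −0.54 to 0.74), 0.12 (−0.29 to 0.53) and −0.05 (−0.40 to 0.29). All of these intervals hold 0, and their arrays overlapped.

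Fdps, which makes farnesyl pyrophosphate, separated the CD133 high arrays from each other. It read 10.97, 10.93 and 10.64 in the low fraction, 11.30 on CD133 high replicate 1, and 10.21 and 10.01 on replicates 2 and 3. Replicate 1 was thus the highest of the 6 arrays and replicates 2 and 3 the lowest. With all arrays the difference was −0.34 (SE 0.34, adjusted p = 0.621), and without replicate 1 Fdps fell by 0.74 (SE 0.14, adjusted p = 0.0213).

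Squalene synthase and squalene epoxidase lay higher in the CD133 high fraction at their brightest probe sets. Fdft1, which joins 2 farnesyl units into squalene, read 8.96, 8.88 and 8.71 against 9.39, 9.31 and 9.09 (difference 0.41, SE 0.16, adjusted p = 0.303). The next probe set of Fdft1 went the other way on CD133 high replicates 2 and 3. It read 9.50, 9.46 and 9.16 in the low fraction, 9.72 on CD133 high replicate 1, and 7.65 and 8.34 on replicates 2 and 3 (difference −0.81, SE 0.49, adjusted p = 0.424), and without replicate 1 it fell by 1.38 (adjusted p = 0.0151). The direction of Fdft1 therefore depends on the probe set.

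Sqle, the epoxidase that adds oxygen to squalene, read 9.93, 9.77 and 9.93 against 10.13, 10.28 and 10.17. Its fractions did not overlap (difference 0.32, SE 0.13, adjusted p = 0.319, and 0.35 with adjusted p = 0.0731 without CD133 high replicate 1). Lss, which closes the ring to lanosterol, read 8.72, 8.39 and 8.70 in the low fraction and 8.61, 9.58 and 9.17 in the high fraction. CD133 high replicate 1 sat within the low range, and without it Lss rose by 0.77 (SE 0.18, adjusted p = 0.0355). All 3 probe sets of Lss had positive differences with all arrays (0.52, 0.45 and 0.69). Leaving out CD133 high replicate 1, only the brightest passed. The others by level then differed by 0.40 and 1.02 (limma, adjusted p = 0.267 and 0.0639).

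After lanosterol, as before it, the enzymes did not share a direction. Cyp51, the first demethylase of lanosterol, read 10.10, 9.73 and 9.68 in the low and 10.74, 9.70 and 9.68 in the high fraction, so that CD133 high replicate 1 stood above the rest. The second probe set of Cyp51 by level was higher on every CD133 high array, at 8.95, 8.79 and 9.14 against 7.91, 7.97 and 8.11. This gave a difference of 0.97 (SE 0.16, adjusted p = 0.114), and 0.97 with an adjusted p of 0.0128 without CD133 high replicate 1, while the brightest probe set then turned to −0.15 (adjusted p = 0.541). The third probe set read 4.79, 4.85 and 4.33, all in the dim range, against 4.06, 6.49 and 8.12. Its difference was 1.57 (SE 0.94, adjusted p = 0.42), and without replicate 1 it rose by 2.65 (limma, adjusted p = 0.0220).

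Msmo1 and Sc5d shared the pattern of the brightest Cyp51 probe set. Msmo1, the methylsterol monooxygenase, read 10.26, 10.17 and 10.17 on the low arrays and 10.96, 9.85 and 10.17 on the high arrays. Sc5d, a desaturase near the end of the route, read 9.65, 9.69 and 9.48 and then 10.40, 9.36 and 9.30. For both, CD133 high replicate 1 was the highest array, and their differences of 0.13 and 0.08 turned to −0.19 and −0.28 without it (adjusted p = 0.34 and 0.141). In Sc5d that turn was seen at the brightest of 3 probe sets; the others differed by 0.34 and 0.42, and by 0.47 and 0.36 without replicate 1 (adjusted p = 0.473 and 0.483). Levels of different genes are not set against each other, since probe sets differ in response.

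Nsdhl and Hsd17b7, which act one after the other in removing the methyl groups at carbon 4, were the sterol enzymes with the largest positive differences. Nsdhl read 9.20, 9.01 and 9.11 in the low fraction, 9.03 on CD133 high replicate 1, and 11.25 and 11.31 on replicates 2 and 3. The first CD133 high array was thus at the low level and the others over 2 log2 units above it, with a difference of 1.42 (SE 0.59, adjusted p = 0.318) over all arrays. Without CD133 high replicate 1 Nsdhl rose by 2.17 (SE 0.10, adjusted p = 9.13e-04), the smallest adjusted p of any member in that contrast.

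Hsd17b7 was higher on every CD133 high array. It read 7.80, 7.44 and 7.89 against 8.01, 8.54 and 8.99 (difference 0.80, SE 0.28, adjusted p = 0.297), and without CD133 high replicate 1 it rose by 1.06 (adjusted p = 0.0226). Of its 4 probe sets 3 had positive differences with all arrays (0.80, 0.40 and 0.28) and the dimmest a negative one (−0.35). Leaving out CD133 high replicate 1, only the brightest passed. The others by level then differed by 0.44, 0.30 and −0.30 (limma, adjusted p = 0.237, 0.336 and 0.375). Nsdhl has 1 probe set, so no second reading of it was at hand.

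Dhcr7, Ebp and Tm7sf2, which act after lanosterol, were dimmer on every CD133 high array. Dhcr7, the reductase that completes cholesterol, read 8.16, 8.67 and 8.21 in the low and 7.86, 7.48 and 7.01 in the high fraction, without overlap (difference −0.90, SE 0.27, adjusted p = 0.297). Ebp, the sterol isomerase, read 10.65, 10.83 and 10.36 against 10.26, 10.07 and 9.83 (difference −0.56, SE 0.19, adjusted p = 0.297). Tm7sf2, a sterol reductase acting just after Cyp51, read 8.03, 8.12 and 7.98 against 7.94, 7.40 and 7.07 (difference −0.58, SE 0.25, adjusted p = 0.322).

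In all 3 of these genes CD133 high replicate 1 was the CD133 high array nearest to the low fraction. Without it Dhcr7 fell by 1.11, Tm7sf2 by 0.81 and Ebp by 0.66 (adjusted p = 0.0265, 0.0224 and 0.0439). Lbr, a nuclear membrane protein that carries out the same reduction as Tm7sf2, differed by 0.04 (95% interval −0.45 to 0.53), with overlapping arrays (11.70, 11.34 and 11.90 against 11.94, 11.55 and 11.57).

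Among the regulators, Srebf2 and Srebf1 did not share a pattern. Srebf2 read 10.36, 10.14 and 10.22 in the low fraction, 10.18 on CD133 high replicate 1, and 10.96 and 11.02 on replicates 2 and 3 (difference 0.48, SE 0.25, adjusted p = 0.362). Leaving out replicate 1, Srebf2 rose by 0.75 (SE 0.11, adjusted p = 0.00969), and its other probe set by 0.48 (adjusted p = 0.0373). Srebf1 read 10.42, 10.29 and 10.31 against 10.47, 10.51 and 10.14, a difference of 0.04 with a 95% interval of −0.33 to 0.40. Whether the 2 genes differ from each other was not tested.

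Scap, the escort of SREBP, had a difference of the opposite sign to Srebf2. It read 10.47, 10.16 and 10.03 on the low arrays and 10.31, 9.60 and 9.54 on the high arrays. The difference was −0.40 (SE 0.25, adjusted p = 0.427) over 6 arrays, and without CD133 high replicate 1 Scap fell by 0.65 (adjusted p = 0.0346). Its dimmer probe set had a positive difference of 0.51 (adjusted p = 0.405), with 6.62, 6.19 and 6.47 against 6.44, 7.40 and 6.98. That difference was 0.77 without replicate 1 (limma, adjusted p = 0.0729), so the direction of Scap depends on the probe set.

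At their brightest probe sets, the sterol-sensing Insig genes and the sterol carrier Stard4 had positive differences, none of which passed. Insig1, itself a target of SREBP, read 11.28, 11.03 and 11.32 against 11.27, 12.24 and 11.65. CD133 high replicate 1 lay within the low range, and the difference of 0.51 (SE 0.26, adjusted p = 0.367) grew to 0.73 without it and missed the threshold (adjusted p = 0.0549). Insig2 read 9.30, 9.01 and 9.51 against 9.72, 9.42 and 9.62 (difference 0.31, adjusted p = 0.409). Its second probe set lay wholly higher in the high fraction, 8.95, 8.79 and 8.70 against 9.10, 9.37 and 9.24 (difference 0.43, SE 0.15, adjusted p = 0.298), and the third differed by −0.06 with overlap. Without CD133 high replicate 1 the second probe set of Insig2 rose by 0.49 (limma, adjusted p = 0.0434). The brightest and the third then differed by 0.24 and −0.35 (adjusted p = 0.371 and 0.289).

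Stard4, which ferries cholesterol between membranes, read 9.36, 9.48 and 9.77 against 9.94, 9.87 and 9.87. The CD133 high arrays were close to each other and above all low arrays (difference 0.36, SE 0.16, adjusted p = 0.328), and all 3 probe sets had positive differences between 0.25 and 0.36. The 6 sensing and transport genes had a median difference of 0.33, with 5 of 6 positive.

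**Figure D3:**
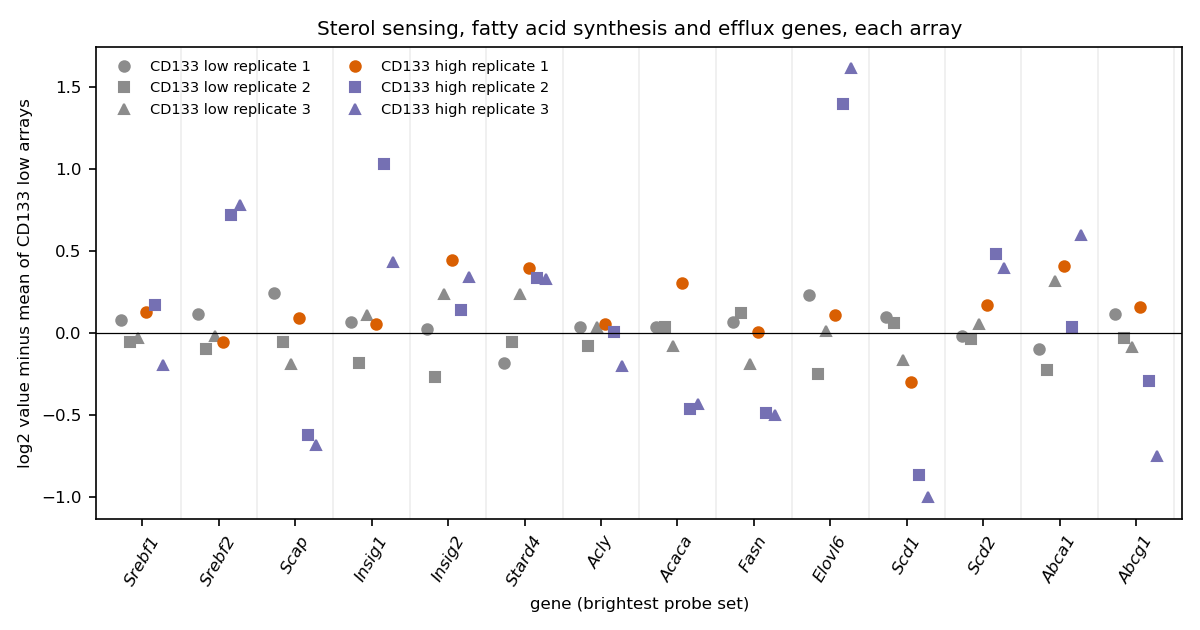
Log2 value of each array minus the mean of the 3 CD133 low arrays (vertical axis) for 14 sterol sensing, fatty acid synthesis and efflux genes (horizontal axis); grey symbols are CD133 low arrays, the orange circle CD133 high replicate 1, and the purple square and triangle CD133 high replicates 2 and 3. Elovl6 and Srebf2 are high on replicates 2 and 3 and Scd1 is low there, and replicate 1 lies nearer to the CD133 low arrays for each of these.

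The 6 fatty acid enzymes had a median difference of −0.12, with 2 positive and 4 negative, and the group median was 0.08 on CD133 high replicate 1 and −0.23 and −0.32 on replicates 2 and 3. Acly, which supplies cytosolic acetyl-CoA, read 12.02, 11.90 and 12.02 against 12.04, 11.99 and 11.78, a difference of −0.04 with a 95% interval of −0.40 to 0.31.

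Acaca and Fasn, which make malonyl-CoA and palmitate, were lower on CD133 high replicates 2 and 3 at their brightest probe sets. Acaca read 9.05, 9.05 and 8.93 on the low arrays and 9.32, 8.55 and 8.58 on the high arrays. Fasn read 9.47, 9.53 and 9.22 and then 9.41, 8.92 and 8.90. Over all arrays they differed by −0.20 and −0.33 (adjusted p = 0.678 and 0.416), and without CD133 high replicate 1 they fell by 0.45 and 0.49 (adjusted p = 0.0374 and 0.0491). The second probe set of Acaca read 6.53, 6.62 and 6.51 against 6.14, 6.69 and 6.02. Its difference without replicate 1 was −0.20 (limma, adjusted p = 0.627).

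Elovl6, which lengthens palmitate to stearate, was the fatty acid gene with the largest difference. It read 8.37, 7.88 and 8.15 in the low fraction, 8.24 on CD133 high replicate 1, and 9.53 and 9.75 on replicates 2 and 3 (difference 1.04, SE 0.40, adjusted p = 0.304). Without replicate 1 Elovl6 rose by 1.51 (SE 0.18, adjusted p = 0.00605). Its next probe set did not share this, at 6.59, 6.47 and 6.67 against 6.67, 6.33 and 6.54 (difference −0.07), and the dimmest differed by 0.34 (adjusted p = 0.65).

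The stearoyl-CoA desaturases Scd1 and Scd2, neighbouring paralogs that place a double bond in stearate, had differences of opposite sign. Scd1 read 11.12, 11.08 and 10.85 against 10.72, 10.15 and 10.02, without overlap (difference −0.72, SE 0.22, adjusted p = 0.297). Scd2 read 12.56, 12.54 and 12.63 against 12.75, 13.06 and 12.98, also without overlap (difference 0.35, SE 0.16, adjusted p = 0.332). Leaving out CD133 high replicate 1, Scd1 fell by 0.93 and Scd2 rose by 0.44 (adjusted p = 0.0081 and 0.0339). Whether they differ from each other was not tested.

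Further probe sets shared the sign in Scd2 and not in Scd1. The second probe set of Scd2 read 9.78, 9.47 and 9.48 against 9.91, 10.67 and 10.96 (difference 0.94, SE 0.28, adjusted p = 0.297), and the third differed by 0.32. The second probe set of Scd1 read 8.99, 8.77 and 8.87 against 8.95, 8.98 and 8.96, a difference of 0.09 (adjusted p = 0.759). How far probe sets of such close paralogs pick up each other's transcript was not tested.

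The efflux pumps Abca1 and Abcg1 had differences of opposite sign at their brightest probe sets. Abca1, which loads cholesterol onto lipoproteins, read 11.89, 11.76 and 12.31 against 12.40, 12.02 and 12.58 (difference 0.35, SE 0.22, adjusted p = 0.443), and its other probe sets differed by 0.51 and 1.47. Abcg1 read 11.82, 11.67 and 11.62 against 11.86, 11.41 and 10.95 (difference −0.29, SE 0.24, adjusted p = 0.545). The second probe set of Abcg1 lay higher on all CD133 high arrays, at 8.11, 8.47 and 8.53 against 7.94, 7.81 and 7.65 (difference 0.57, SE 0.18, adjusted p = 0.297). Macrophages carry both pumps. The macrophage marker sums above overlapped between the fractions. Without CD133 high replicate 1, 2 of the 13 markers rose and 3 fell, where 11.7% of all genes were called higher and 14.6% lower. With 13 genes, these counts are not far from those shares. Cd163 and Cd68, chosen after their values were seen, differed in that contrast by 1.61 and −1.06 (limma, adjusted p = 0.0141 and 0.00332). With all arrays they differed by 1.24 without overlap and by −0.64 with overlap (adjusted p = 0.297 and 0.381). The part of macrophages in the values of the pumps was not tested.

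**Figure D4:**
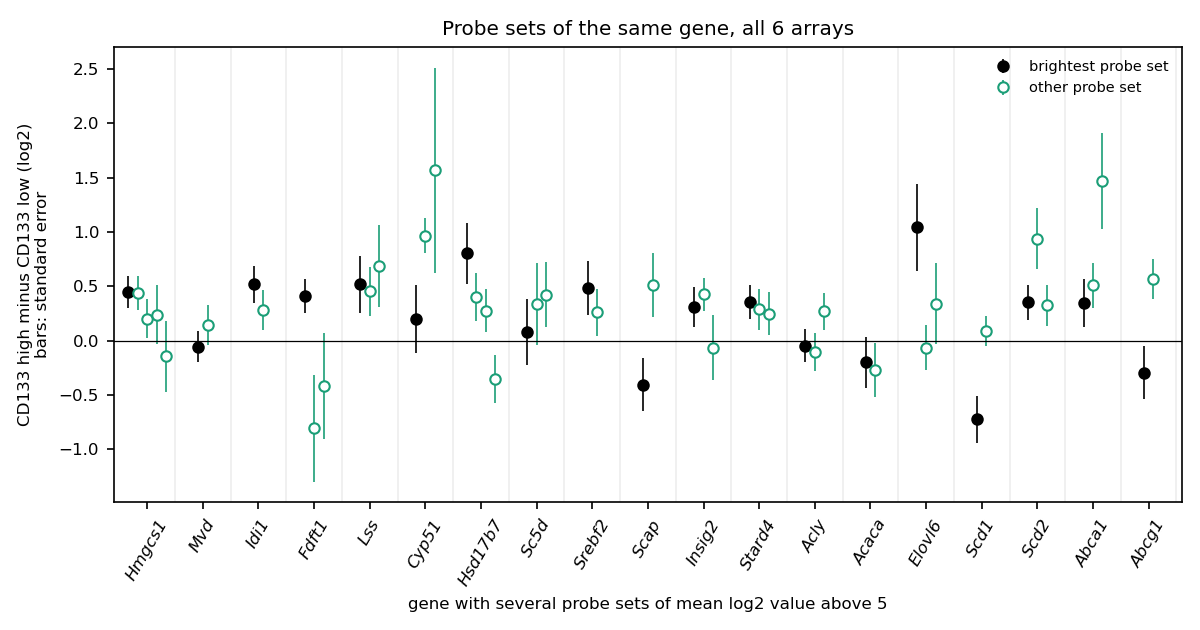
Difference between the fractions over all 6 arrays (CD133 high minus CD133 low, log2, vertical axis, bars are standard errors) for each probe set with a mean log2 value above 5 of the 19 members with several such probe sets (horizontal axis); black points are the brightest probe set of a gene and open green points the others. In 10 of the 19 genes the signs differ between probe sets, among them Fdft1, Scap, Scd1 and Abcg1.

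Probe sets of one gene gave a check that the choice of the brightest did not use. The members had 73 probe sets, 66 of them with a mean above 5. Of the 19 members with several such probe sets, all differences had one sign in 9, Idi1, Lss, Cyp51, Sc5d, Srebf2, Stard4, Acaca, Scd2 and Abca1, and the signs differed in 10. In Hmgcs1 the second probe set, at 11.04, 10.82 and 11.15 against 11.37, 11.38 and 11.58, was close to the first (differences 0.44 and 0.45), the next 2 differed by less, as given above, and the dimmest by −0.14.

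Further genes of lipid synthesis and sterol handling, 51 listed and 47 measured, included 0 that passed with all 6 arrays (limma, 10 at an unadjusted p under 0.05, 7 higher and 3 lower, where 18.2% of all genes stood), and their median difference was −6.55e-05. Without CD133 high replicate 1, 6 rose and 6 fell (of 47 each), near the 11.7% and 14.6% of all genes. Acsl3, which activates long-chain fatty acids on lipid droplets, read 9.26, 9.20 and 9.62 on the low arrays and 10.22, 10.33 and 10.49 on the high arrays. Its difference of 0.98 (SE 0.17) gave an adjusted p of 0.123, below that of any member at its brightest probe set. The second probe set of Cyp51 had 0.114, as given above. The 3 CD133 high arrays lay close together here, and without replicate 1 Acsl3 rose by 1.04 (adjusted p = 0.0113).

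Idh1 and Me1, cytosolic sources of the NADPH that lipid synthesis consumes, differed by 0.48 and 0.46, and Acsl4, another acyl-CoA synthetase, by 0.53 (adjusted p = 0.297 for each). In these 3 genes the fractions did not overlap. Of the sterol handling genes, Cav1, the coat protein of caveolae, differed by 0.93, Ch25h, which makes 25-hydroxycholesterol, by 0.60, Abca7, a lipid transporter, by −0.77 and Lpcat3, a phospholipid acyltransferase, by −0.42 (adjusted p = 0.297, 0.304, 0.299 and 0.313). Without CD133 high replicate 1, Cav1 rose by 1.28 and Abca7 and Lpcat3 fell by 0.99 and 0.56 (adjusted p = 0.00315, 0.0403 and 0.0275), while Idh1 rose by 0.61 (adjusted p = 0.0124). Me1, Acsl4 and Ch25h differed by 0.35, 0.59 and 0.73 in that contrast and missed the threshold (limma, adjusted p = 0.0511, 0.0586 and 0.0627).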

How the data were processed

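Per the labels' protocols, RNA of the sorted fractions was isolated with an Ambion kit and biotinylated cRNA was put on Affymetrix mouse arrays. The deposited table is on the log2 scale, by its range; the authors' summarisation and normalization are not given in the sources used here. It has 45101 probe sets, more than the array type that the labels name. After 64 control probe sets were left out, 45037 were fitted in R (version 4.3.3) with limma 3.58.1: a linear model per probe set, moderated with a variance trend, two-sided, Benjamini-Hochberg adjustment over all of them, threshold 0.05, no covariate. An exact permutation of 3 against 3 arrays cannot go below p = 0.1 and was not used. Gene names came from the platform annotation; probe sets with several genes were not used. Values below 5 are called dim. Errors of differences are standard errors from the model, and their precision is limited by the number of arrays.

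The labels number no replicates, so numbers follow accession order and pair nothing. The members and lists were chosen with earlier results of these data known. All 34 members may be named, with up to 4 genes of each related list by p and 3 per marker list by level. Alternatives were other scalings, filters, a floor, variance models, array weights, a covariate, other probe sets, a threshold of 0.1 and leaving out each array. The fit was tested on simulated data.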

Additional observations from a re-analysis of the deposited data

How the results depend on the processing

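No paired analysis was possible because the labels give no replicate numbers. The count of members called, 0 higher and 0 lower with all arrays, became 3 and 2 with array weights (Nsdhl, Hsd17b7 and Elovl6 higher, Dhcr7 and Scd1 lower; limma, adjusted p of 0.0353 to 0.0455; 5.91% and 7.69% of all genes) and ranged from 0 to 6 higher and 0 to 8 lower when single arrays were left out. Both maxima came without CD133 high replicate 1, and leaving out any other array, or any other alternative run, gave 0 and 0. The median difference of the sterol enzymes, 0.12, ranged from 0.0089 to 0.26 when single arrays were left out and was 0.32 with the hybridisation controls as a covariate. That of the fatty acid enzymes, −0.12, turned to 0.12 with this covariate and ranged from −0.27 to −0.023 without single arrays; it was 0.024 with probe sets of a gene averaged.

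Of 32 members, 19 kept the sign of their difference under every alternative and 13 did not, none of which passed the test with a changed sign. With quantile normalization Acly turned to 0.063, and with equal array medians Lbr and Srebf1 turned to −0.0076 and −0.012. Array weights gave −0.079 for Cyp51, −0.045 for Lbr, −0.063 for Msmo1, −0.16 for Sc5d and −0.034 for Srebf1. The covariate gave 0.36 for Fdps, 0.081 for Scap, 0.048 for Acly, 0.27 for Acaca and 0.078 for Abcg1. Averaging all probe sets per gene gave −0.25 for Mvk, 0.044 for Mvd, 0.24 for Fdps, −0.19 for Fdft1, −0.23 for Msmo1, 0.055 for Scap, 0.28 for Acly and 0.14 for Abcg1, and dropping _s_at and _x_at probe sets, which can match several sequences, gave −0.81 for Fdft1. When single arrays were left out, Acly ranged from −0.095 to 0.033, Lbr from −0.12 to 0.17, Srebf1 from −0.033 to 0.15, Cyp51 from −0.15 to 0.38, Msmo1 from −0.19 to 0.37, Sc5d from −0.28 to 0.28 and Mvk from −0.057 to 0.24. The causes were not tested, except that probe set alternatives read other probe sets. No member had a mean in the dim range. Mvk alone had no value once the dimmest 50% of probe sets were left out.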
